A study of Mus musculus with 6 samples.

Results

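The unfolded protein response and chaperone genes of the endoplasmic reticulum (ER) were examined in mouse pancreas during experimental acute pancreatitis (AP). The 40 genes were taken by symbol from a list of sensors, factors, targets, chaperones and degradation genes. This rule uses no measured value, but the list was chosen with earlier results of these data known. All 40 were found among the 22556 genes in the tables. They comprise 4 stress sensors, 3 transcription factors, 5 targets of the integrated stress response, 12 luminal chaperones and co-chaperones, 7 disulfide isomerases and oxidases, and 9 genes of ER-associated degradation.

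RNA-sequencing of whole pancreas was available for 6 wild-type C57BL/6 mice, labelled as 8 weeks old, with 2 mice in each of 3 groups. Control mice received saline, AP mice received caerulein, and the third group (polyI:C + AP) received polyI:C as a pretreatment before caerulein. Mice of the latter 2 groups are called caerulein-treated, and those of the third also pretreated. Per the study's methods the mice were male and caerulein was given as repeated injections. Tissue was taken the day after induction began, so earlier times are not part of the data. Caerulein is a cholecystokinin analogue that overstimulates the acinar cells and so produces pancreatitis, and polyI:C is a synthetic double-stranded RNA that triggers interferon production. The comparisons ask how pancreatitis changes this set of genes and whether pretreatment with polyI:C alters that change. No group received polyI:C without caerulein, so an effect of polyI:C alone is not part of the comparisons.

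The acinar cell synthesises more secretory protein for its size than most other cells, and its rough ER is correspondingly large. When unfolded proteins build up in the ER lumen, the membrane sensors IRE1α, PERK and ATF6 signal to the nucleus and to the ribosome. IRE1α splices the mRNA of the transcription factor XBP1, PERK phosphorylates the initiation factor eIF2α and so favours translation of ATF4, and ATF6 is cleaved to release a transcription factor, which together raise chaperones, folding enzymes and the machinery that removes misfolded proteins. Values here are transcript levels per gene as TPM, a relative abundance corrected for gene length and library size, so neither Xbp1 splicing, nor eIF2α phosphorylation, nor ATF6 cleavage was measured.

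Promoter windows from 250 bases before to 50 bases after the start site were found in the RefSeq table (GRCm38.p6) for 35 of the 40 genes. The ER stress element, CCAAT then 9 bases then CCACG, was searched on both strands. It occurred in the windows of 10 of the 35 genes (28.6%), against 37 of all 27025 genes with a window (0.137%). The genes were listed for their part in this response, so the contrast is a description and not a test. The following stretches are shown because they lie before genes that the results return to and whose changes lay on both sides of 0, which were the chaperones Hspa5 and Calr, the oxidase gene Ero1lb and the degradation genes Syvn1, Derl3 and Herpud1. Each is written 5′ to 3′ along the strand of its gene, with the element in capitals. Where the element is read on the opposite strand, the capitals begin with CGTGG.
Hspa5: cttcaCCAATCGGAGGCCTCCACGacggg
Calr: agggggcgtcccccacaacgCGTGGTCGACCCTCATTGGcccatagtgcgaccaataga
Ero1lb: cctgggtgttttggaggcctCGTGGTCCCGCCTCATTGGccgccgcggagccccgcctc
Syvn1: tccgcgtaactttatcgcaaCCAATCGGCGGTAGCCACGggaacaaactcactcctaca
Derl3: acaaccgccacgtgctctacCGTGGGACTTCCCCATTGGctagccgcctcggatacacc
Herpud1: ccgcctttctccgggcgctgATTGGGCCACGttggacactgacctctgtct
The Hspa5 stretch is chr2:34772020-34772048 on the plus strand, and the Calr stretch is chr8:84847055-84847113 on the minus strand. The Ero1lb stretch is chr13:12565662-12565720, the Syvn1 stretch chr19:6046512-6046570 and the Derl3 stretch chr10:75893222-75893280, all on the plus strand. All 6 stretches lie before the RefSeq start site, although GENCODE M21 places the start of Hspa5 before its stretch. The capitals of the Herpud1 stretch (chr8:94386357-94386407, plus strand) mark the second form of the element, ATTGG then 1 base then CCACG. This form occurred in 2 of the 35 genes, Dnajb11 and Herpud1, against 12 of all 27025 genes.

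The core of the unfolded protein response element, TGACGTGG, was found in 1 of the 35 windows, that of Vcp, shown next, against 193 of 27025 genes (0.714%). The response element bound by C/EBP and ATF factors, TGATGCAA, was found in 2 of the 35 windows, those of Chac1 and Herpud1, against 279 genes (1.03%). In both it is read on the opposite strand, so its capitals begin with TTGC.
Vcp: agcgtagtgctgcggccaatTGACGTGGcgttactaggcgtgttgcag
Chac1: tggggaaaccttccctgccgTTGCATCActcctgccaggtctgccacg
Herpud1: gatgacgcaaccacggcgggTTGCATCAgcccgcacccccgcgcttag
The Vcp stretch is chr4:43000594-43000641 on the minus strand, the Chac1 stretch chr2:119351029-119351076 on the plus strand and the Herpud1 stretch chr8:94386297-94386344 on the plus strand. A match describes the letters in the window and does not show that a factor was bound.

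**Figure D1:**
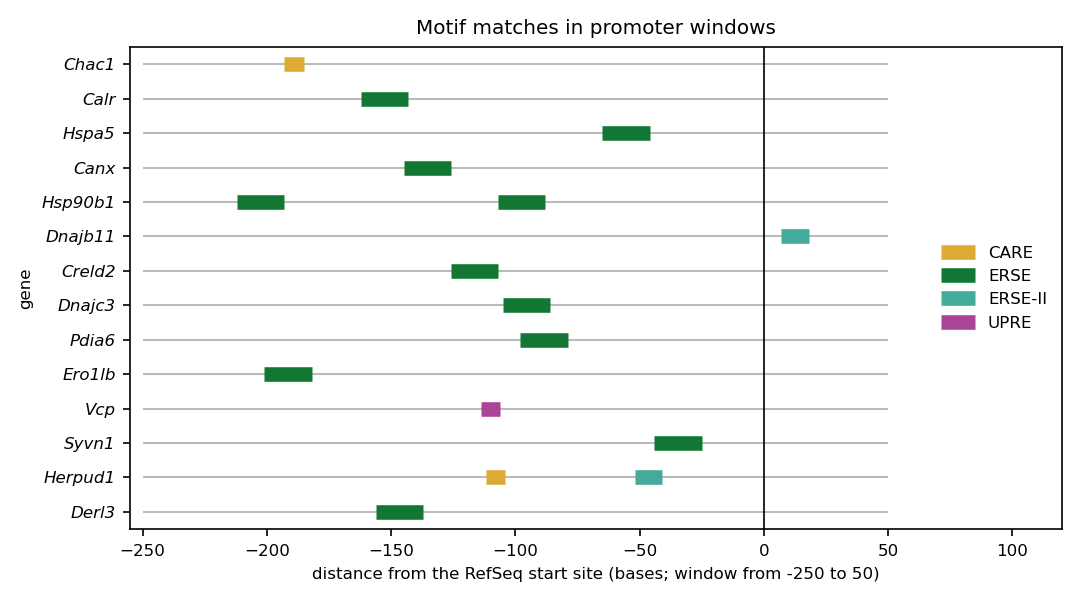
Position of motif matches in the promoter windows of 14 genes. The x axis gives the distance from the RefSeq start site in bases, each grey line is a window from 250 bases before to 50 bases after the start, and coloured blocks are matches to the ER stress element (ERSE), its second form (ERSE-II), the unfolded protein response element (UPRE) and the C/EBP-ATF response element (CARE). The 11 ERSE matches all lie before the start site, their nearer ends between 25 and 193 bases from it.

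In the saline pancreas the set was led by genes of disulfide formation and ER-associated degradation. P4hb, which encodes protein disulfide isomerase, had the highest mean level (3906 ± 231 TPM, SD, n = 2). It was followed by the oxidase gene Ero1lb (2096 ± 1.12 TPM), the degradation adaptor Sel1l (1200.0 ± 65.8 TPM), and Asns, which encodes asparagine synthetase (1125 ± 24.99 TPM). Hspa5, which encodes the chaperone BiP, had a mean of 990.2 ± 134 TPM and Herpud1 one of 989 ± 59.2 TPM, and the values of their mice overlapped, so these neighbours in the order were not separated. TPM values are corrected for length, so these levels can be compared between genes.

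The order changed in AP mice. Xbp1 moved from the seventh to the highest level of the 40 genes, where P4hb followed with 1623 and 1558 TPM, and was also the highest in the polyI:C + AP mice. Ero1lb moved from the 2nd to rank 14 in AP and rank 12 after polyI:C pretreatment, and Herpud1 from rank 6 to rank 15 in both. The 40 genes together held 1.74% and 1.84% of all TPM (saline), 1.26% and 1.23% (AP) and 1.13% and 1.07% (polyI:C + AP), so each caerulein-treated mouse was below both saline mice in this sum. Abundant genes weigh most in such a sum. P4hb and Ero1lb, the highest in saline, went from means of 3906 and 2096 TPM to 1591 and 246 TPM in AP. Gene by gene, both AP mice were above both saline mice for 17 genes and below them for 21. The levels of the 40 genes were close between mice of a group, with a median difference of 8.95%, 7.45% and 7.41% for the respective groups saline, AP, and polyI:C + AP.

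Beside these values, the libraries differed in cell-type markers. The summed level of the 12 acinar markers in the tables, of 30 listed, was 134484 and 123170 TPM in saline, 38437 and 26885 TPM in AP, and 20827 and 16993 TPM in polyI:C + AP mice. The other 18 acinar markers, mostly digestive enzymes, were not analysed here, and TPM is a share of the total over the genes in the tables only. Duct markers summed to 2354 and 2666 TPM in saline against 24370 to 35486 TPM in the 4 caerulein-treated mice, all 10 being listed. Macrophage markers, also 10 of 10, summed to 477 to 721 TPM in saline, 2779 and 3196 TPM in AP and 635 and 777 TPM in polyI:C + AP mice. Plasma and B cell markers, 7 of 10 listed, stood at 40.04 and 45.03 TPM in saline and at 261 to 307 TPM in the others. Of these 7 only Sdc1 rose in AP, from 23.3 and 21.6 to 271 and 244 TPM, a gene that epithelial cells also express, and the median log2 fold change of the 7 was 0.20. No marker of these lists was at 0 in every mouse. The part of these cell types in the results was not tested, and in whole tissue fewer cells of a type and less RNA per cell cannot be told apart.

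**Figure D2:**
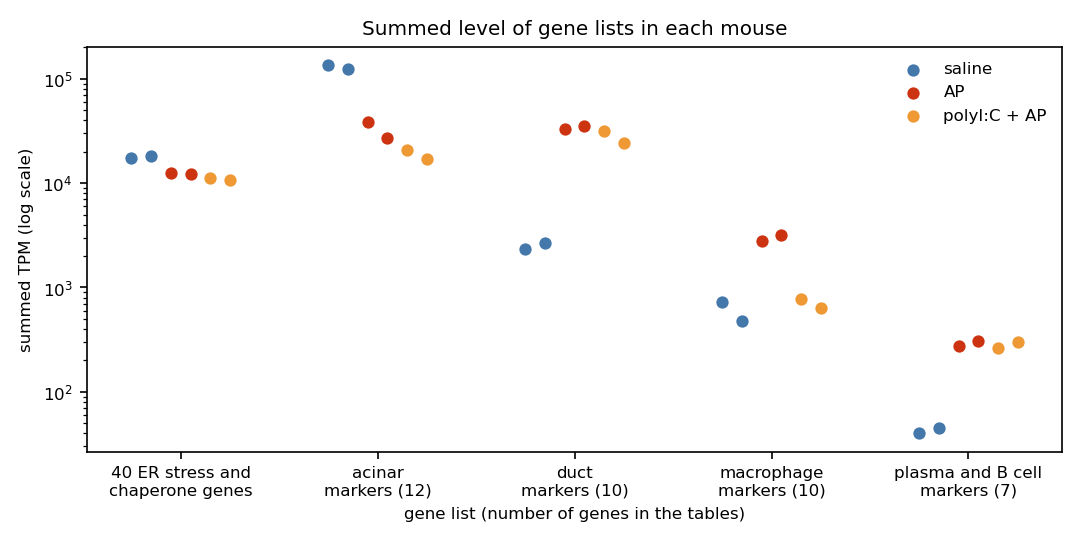
Summed level of the 40 ER stress and chaperone genes and of 4 marker lists in each mouse. The y axis is summed TPM on a log scale, the x axis names each list with its number of genes, and each point is a mouse coloured by group. The 40 genes together changed less between groups than the acinar or duct markers, while macrophage markers were highest in the 2 AP mice.

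The scale of the comparison matters here. The median of all 16814 tested genes stood at a log2 fold change of 0.45 for AP against saline, 0.48 for polyI:C + AP against saline and 0.04 between the caerulein-treated groups. After median-of-ratios scaling these medians were 0.05, 0.05 and 0.02. Fold changes below are on the log2(TPM + 0.5) scale of the deposited values, and scaled values follow where scaling ended a call or a pass of the test for a gene described in AP against saline. A gene passed the test when limma's adjusted p (Benjamini-Hochberg over all tested genes) was at most 0.05, and was said to rise or fall when the change was also at least 2-fold.

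In AP mice genes of the set changed in both directions. The targets Trib3 and Ppp1r15a and the factor gene Ddit3 rose, while 5 of the 9 degradation genes and the pancreatic oxidase gene Ero1lb fell. Of the 40 genes, 5 rose (12.5%) and 9 fell (22.5%), against 18.2% and 4.03% of all tested genes. The other rises were Ero1l and Xbp1. The 9 that fell were Derl3, Ero1lb, Herpud1, Pdia2, Edem1, Sel1l, P4hb, Dnajc3 and Selenos. At an adjusted p of at most 0.05 and any size of change, 15 were higher and 17 lower (33% and 7.39% of all genes). Their median change in log2 was -0.19, with a range from -3.47 to 3.01. After median-of-ratios scaling 3 rose and 15 fell, against 9.33% and 7.32% of all genes, and the median was -0.62. Of the 14 genes that rose or fell, 12 did so in both scalings, while Xbp1 and Ero1l came under 2-fold after scaling, and Ern1, Canx, Pdia4, Pdia6 and Derl2 turned from above to below 0. Scaling also ended the pass at any size for 7 genes that were higher (Atf6b, Atf4, Chac1, Hspa5, Pdia3, Pdia4 and Derl1) and gave one to 4 that were lower (Ppp1r15b, Hsp90b1, Uggt1 and Syvn1). Both AP mice were above both saline mice for 17 of the 40 genes and below them for 21, against 52.6% and 16.4% of all genes, and the groups overlapped for Pdia6 and Derl2. In the same comparison 10 of the 12 acinar markers fell, while 7 of 10 duct and 9 of 10 macrophage markers rose, and their part in these counts was not tested.

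**Figure D3:**
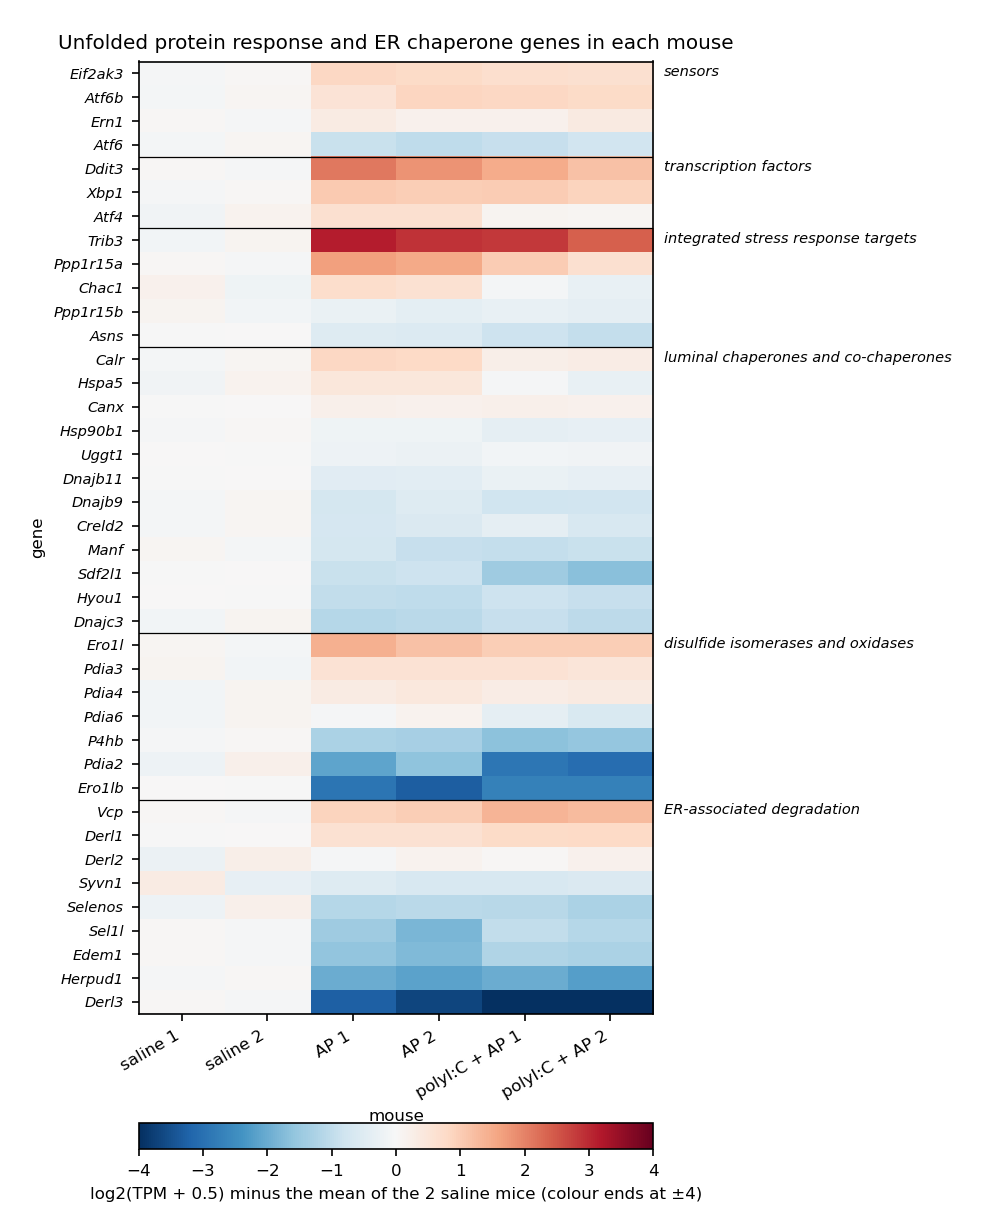
Level of each of the 40 genes in each mouse relative to the saline mean. Rows are genes grouped by role, columns are the 6 mice, and colour gives log2(TPM + 0.5) minus the mean of the 2 saline mice, with colours ending at 4 in either direction. Trib3 and Ddit3 are red in all 4 caerulein-treated mice, while Derl3, Ero1lb, Herpud1 and Pdia2 are blue in all 4.

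None of the 4 sensor genes rose or fell 2-fold in AP. Eif2ak3, which encodes PERK, had 111 and 119 TPM (saline), 204 and 195 TPM (AP) and 182 and 179 TPM (polyI:C + AP). Its log2 fold change in AP was 0.79 (SE 0.09, limma adjusted p 0.000713), and 0.36 after scaling. The saline mice were below all others, and the 2 AP mice were the highest. Atf6, which encodes the cleaved sensor and factor ATF6, had 176 and 196 TPM (saline), 99.1 and 91.9 TPM (AP) and 98.6 and 109 TPM (polyI:C + AP). The log2 fold change was -0.96 (SE 0.10, limma adjusted p 0.000673) in AP, just under 2-fold, and -1.39 after scaling. Its paralogue Atf6b was instead higher, by less than 2-fold.

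Atf6b had 16.6 and 18.5 TPM (saline), 25.9 and 32.1 TPM (AP) and 31.7 and 30.4 TPM (polyI:C + AP), with a log2 fold change in AP of 0.70 (SE 0.16, limma adjusted p 0.0147), and 0.28 after scaling (0.241). As a share of the summed Atf6 and Atf6b level, a ratio within each mouse that scaling cannot alter, Atf6b held 8.64% and 8.63% in the saline mice and 20.7% to 25.9% in the other 4. Ern1, which encodes IRE1α, had 60.6 and 57.1 TPM (saline), 74.1 and 65.9 TPM (AP) and 66.4 and 76.1 TPM (polyI:C + AP). Its AP difference of 0.25 (95% interval -0.02 to 0.51, limma adjusted p 0.125) did not pass the test and turned to -0.18 after scaling.

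Of the 3 transcription factor genes 2 rose in AP, where 18.2% of all tested genes did so. The third, Atf4, was higher by less than 2-fold on the deposited scale only. Ddit3 (ENSMUSG00000025408, chromosome 10, 127290774 to 127296288) encodes CHOP, the factor linked to death of stressed cells. It had 23.5 and 22.3 TPM (saline), 99.5 and 80.3 TPM (AP) and 65.2 and 51.9 TPM (polyI:C + AP). This was a 3.84-fold rise in AP (log2 1.94, SE 0.17, limma adjusted p 0.000347), and 1.52 on the log2 scale after scaling. The groups did not overlap, with polyI:C-pretreated mice between the other groups. In the annotation 6.13% of Ddit3's exon bases overlap another entry of the same name on the same strand, which has no values here. A further overlap, of 3.97%, is with Mars on the opposite strand. The strand setting of the counting is not given in the sources used here.

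Xbp1 (ENSMUSG00000020484, chromosome 11, 5520659 to 5525893), whose spliced mRNA encodes the factor that drives ER expansion in secretory cells, had 798 and 849.6 TPM (saline), 1692 and 1631 TPM (AP) and 1662 and 1515 TPM (polyI:C + AP). The log2 fold change of Xbp1 in AP was 1.01 (SE 0.10, limma adjusted p 0.000419). All 4 caerulein-treated mice were above both saline mice and overlapped one another. The rise sat at the edge of the 2-fold threshold, at 0.58 after scaling, 0.99 with protein-coding genes only or without AP replicate 1, and 0.97 without saline replicate 1. Atf4, the factor translated when eIF2α is phosphorylated, had 567 and 683 TPM (saline), 965 and 978 TPM (AP) and 668 and 663 TPM (polyI:C + AP). Its log2 fold change in AP was 0.64 (SE 0.11, limma adjusted p 0.00382), and did not pass the test after scaling (0.21, limma adjusted p 0.205). The saline and polyI:C-pretreated mice overlapped below the AP mice.

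Among the 5 targets of the integrated stress response, 2 rose and none fell, against 18.2% and 4.03% of all tested genes. Trib3 (ENSMUSG00000032715, chromosome 2, 152337422 to 152344032) encodes a pseudokinase induced by ATF4 and CHOP, and had the greatest rise of the 40 genes. It had 6.70 and 7.97 TPM (saline), 67.8 and 57.5 TPM (AP) and 55.4 and 40.1 TPM (polyI:C + AP). The rise in AP was 8.05-fold (log2 3.01, SE 0.20, limma adjusted p 0.00014) and 2.60 on the log2 scale after scaling. Both saline mice were low and all 4 caerulein-treated mice high, and the saline values rest on an estimated 20 and 21 reads.

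Ppp1r15a (ENSMUSG00000040435, chromosome 7, 45522916 to 45526268) encodes GADD34, the inducible subunit that directs dephosphorylation of eIF2α. It had 13.9 and 13.2 TPM (saline), 43.2 and 39.4 TPM (AP) and 27.7 and 21.2 TPM (polyI:C + AP). This was a 2.97-fold rise in AP (log2 1.57, SE 0.17, limma adjusted p 0.000707), with the pretreated mice between the other groups. Ppp1r15b, the constitutive counterpart, had a log2 fold change of -0.32 (95% interval -0.58 to -0.06), which did not pass the test (limma adjusted p 0.0549), and one of -0.75 after scaling, which did (0.00266). Ppp1r15a thus held 8.90% and 9.78% of the summed level of the pair in saline, 28.1% in each AP mouse, and 20.6% and 17.1% after polyI:C pretreatment. Chac1, which encodes a glutathione-degrading enzyme, had a log2 fold change of 0.67 (limma adjusted p 0.011), and 0.24 after scaling (0.243). Asns, also an ATF4 target, had one of -0.54 (limma adjusted p 0.00322), in the direction opposite to Trib3.

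**Figure D4:**
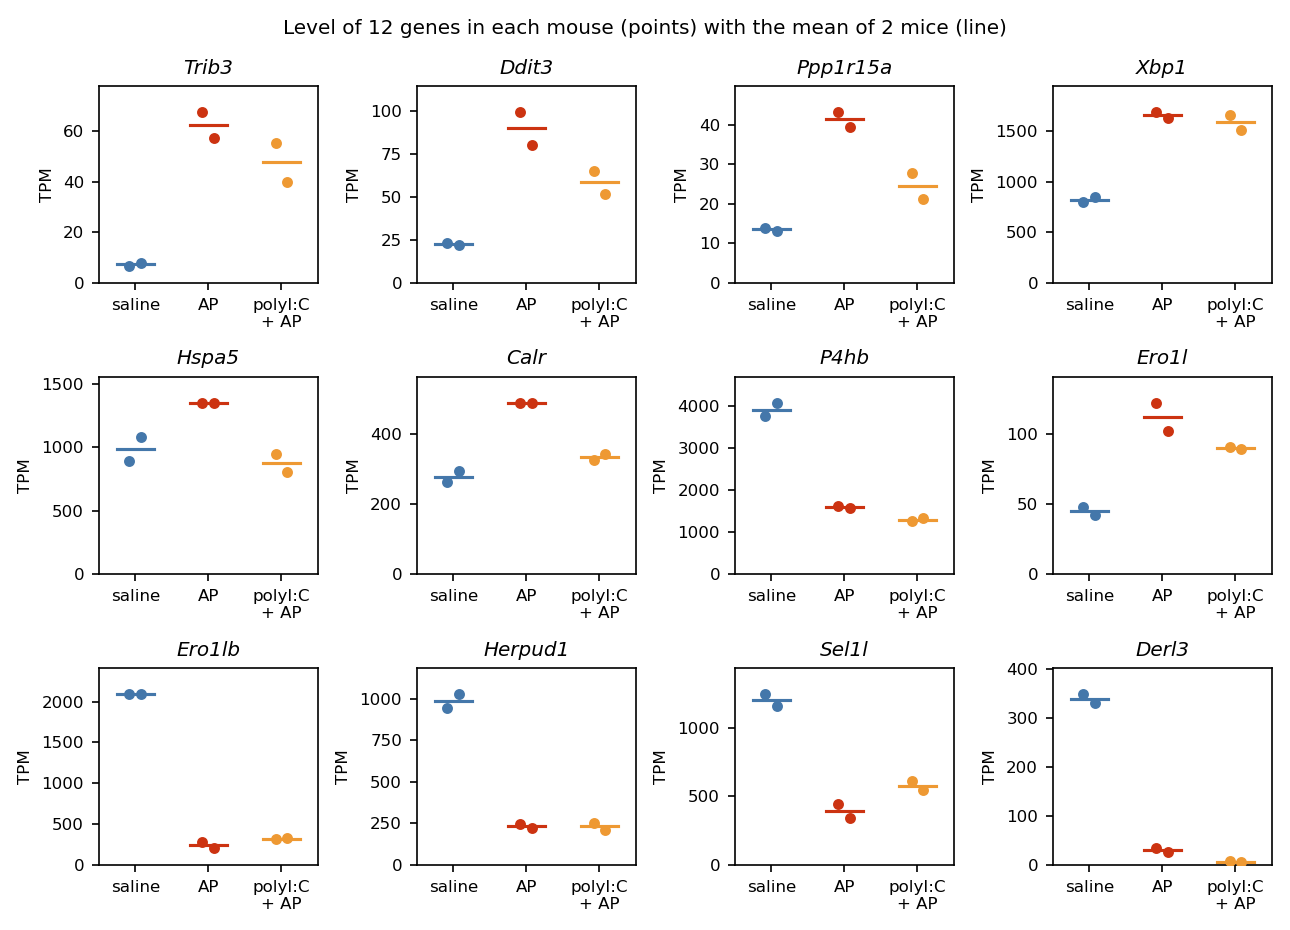
Level of 12 genes in each mouse. The y axis of each panel is TPM from 0, the x axis gives the 3 groups, points are mice and lines are means of 2 mice. Trib3, Ddit3 and Ppp1r15a are lowest in saline and highest in AP, Hspa5 and Calr are highest in AP, and P4hb, Ero1lb, Herpud1, Sel1l and Derl3 are highest in saline.

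Among the 12 chaperone genes none rose and 1 fell in AP, against 18.2% and 4.03% of all tested genes. Their log2 fold changes ran from -1.10 to 0.81 with a median of -0.53. At an adjusted p of at most 0.05, 2 were higher and 7 lower (33% and 7.39% of all genes). After scaling 6 fell and none rose, with a median of -0.96, where 7.32% and 9.33% of all genes did so. Hspa5, the most abundant of them, had 895 and 1085 TPM (saline), 1354 and 1352 TPM (AP) and 952 and 807 TPM (polyI:C + AP). Its log2 fold change in AP was 0.46 (95% interval 0.15 to 0.77, limma adjusted p 0.0306), close to the shift of the median gene, and 0.03 after scaling. Calr, which encodes the lectin chaperone calreticulin, had 262 and 294 TPM (saline), 489 and 487 TPM (AP) and 324 and 342 TPM (polyI:C + AP). Calr differed in AP by a log2 fold change of 0.81 (SE 0.09, limma adjusted p 0.000852), and 0.38 after scaling.

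The chaperone gene that fell was Dnajc3 (ENSMUSG00000022136, chromosome 14, 118937976 to 118981697), which encodes a co-chaperone of BiP that also inhibits PERK. It had 744 and 863 TPM (saline), 364 and 381 TPM (AP) and 425 and 386 TPM (polyI:C + AP). All 4 caerulein-treated mice were below both saline mice, with a log2 fold change in AP of -1.10 (SE 0.11, limma adjusted p 0.000478), which was -0.998 and under 2-fold without saline replicate 2. Hyou1, an ER chaperone that releases nucleotide from BiP, was at -0.998 (limma adjusted p 0.000284). Sdf2l1, a partner of the co-chaperone ERdj3, was at -0.87 and Manf, a secreted stress protein, at -0.81. Creld2, Dnajb9 and Dnajb11, further helpers of folding, were at -0.62, -0.61 and -0.44. Once values were scaled, Hyou1, Sdf2l1, Manf, Creld2, Dnajb9 and the sensor gene Atf6 passed 2-fold. Canx, Hsp90b1 and Uggt1 had log2 fold changes of 0.19, -0.16 and -0.22, and none passed the test, although after scaling Hsp90b1 (-0.59) and Uggt1 (-0.64) did. In the annotation 10.3% of Hsp90b1's exon bases overlap a gene on the opposite strand.

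Within the family of ER oxidoreductins 1 gene fell and the other rose. Ero1lb (ENSMUSG00000057069, chromosome 13, 12565874 to 12611396) encodes the ER oxidoreductin abundant in pancreas, and Ero1l (ENSMUSG00000021831, chromosome 14, 45283087 to 45318771) its more widely expressed paralogue. Both reoxidise protein disulfide isomerases. Ero1lb had 2097 and 2095 TPM (saline), 278 and 213 TPM (AP) and 319 and 325 TPM (polyI:C + AP), an 8.6-fold fall in AP (log2 -3.10, SE 0.14, limma adjusted p 3.94e-05). Both saline mice were far above the other 4, which lay close together. Ero1l had 47.8 and 42.4 TPM (saline), 122 and 102 TPM (AP) and 90.4 and 89.1 TPM (polyI:C + AP), a 2.47-fold rise (log2 1.30, SE 0.12, limma adjusted p 0.000383), which was 0.88 on the log2 scale after scaling. Ero1l held 2.23% and 1.98% of the pair's summed level in saline, 30.5% and 32.5% in AP and 22.1% and 21.5% after polyI:C pretreatment.

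Among the 5 disulfide isomerase genes, 2 fell and none rose, against 4.03% and 18.2% of all tested genes. P4hb (ENSMUSG00000025130, chromosome 11, 120560298 to 120573253) had 3742 and 4069 TPM (saline), 1623 and 1558 TPM (AP) and 1251 and 1339 TPM (polyI:C + AP). This was a 2.45-fold fall in AP (log2 -1.29, SE 0.10, limma adjusted p 0.000194), and both saline mice were above the other 4. Pdia2 (ENSMUSG00000024184, chromosome 17, 26195999 to 26199087), which encodes an isomerase found mainly in pancreas, had 13.4 and 17.6 TPM (saline), 3.21 and 4.68 TPM (AP) and 1.65 and 1.42 TPM (polyI:C + AP). The AP change was -1.85 on the log2 scale (SE 0.35, limma adjusted p 0.00584), but the values rest on an estimated 7 to 36 reads, and without AP replicate 1 the adjusted p was 0.0551. Pdia3, Pdia4 and Pdia6 had log2 fold changes of 0.57, 0.36 and 0.04, and Pdia3 and Pdia4, which passed the test, did not after scaling (0.14 and -0.07). As a share of the summed level of the 5 genes, P4hb held 85.8% and 85.6% in saline and 65.3% to 68.9% in the other 4 mice, while Pdia4 held 3.80% and 4.05% in saline and 9.44% to 11.7% in the others.

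**Figure D5:**
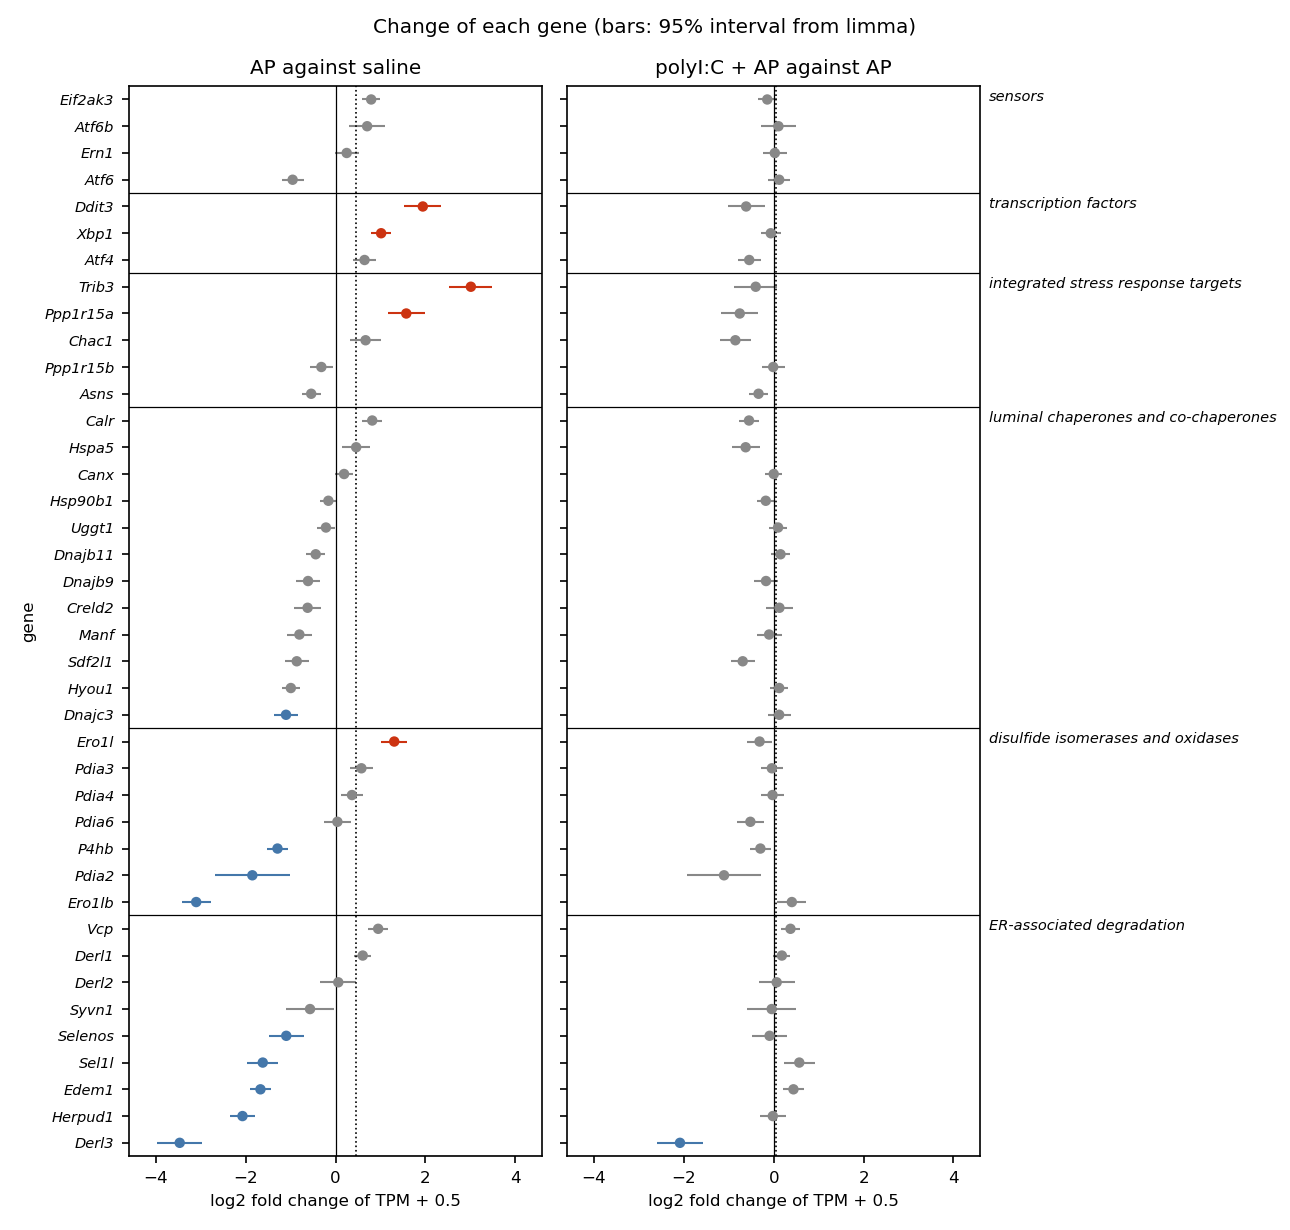
Log2 fold change of each of the 40 genes in AP against saline (left) and in polyI:C + AP against AP (right). The x axis is the log2 fold change of TPM + 0.5, rows are genes grouped by role, bars are 95% intervals from limma, red and blue mark genes that rose or fell, grey those that did neither, and the dotted line is the median of all tested genes. On the left 5 genes are red and 9 blue, and on the right only Derl3 is coloured, a call that was lost when any of the 4 caerulein-treated mice was left out.

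ER-associated degradation held the most genes that fell, 5 of 9 (55.6%, against 4.03% of all tested genes). None of the 9 rose, against 18.2% of all genes. Derl3 (ENSMUSG00000009092, chromosome 10, 75893413 to 75895941) encodes a derlin, a membrane protein through which misfolded proteins leave the ER, and fell the most of the 40 genes. It had 350.2 and 330.3 TPM (saline), 34.7 and 26.3 TPM (AP) and 8.28 and 5.45 TPM (polyI:C + AP), an 11.1-fold fall in AP (log2 -3.47, SE 0.21, limma adjusted p 0.000103). No groups overlapped, and the pretreated mice were the lowest. Derl1 had 193 and 195 TPM (saline), 295 and 295 TPM (AP) and 333 and 335 TPM (polyI:C + AP) (log2 fold change in AP 0.60, limma adjusted p 0.00146), which after scaling was 0.17 (0.159), and Derl2 differed by 0.06 (95% interval -0.34 to 0.46). Derl3 therefore held 61.6% and 58.9% of the summed derlin level in saline, 9.66% and 7.42% in AP and 2.22% and 1.45% after polyI:C pretreatment, while Derl1 went from 33.9% and 34.8% to between 82.1% and 89.3%.

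Herpud1 (ENSMUSG00000031770, chromosome 8, 94386438 to 94395377), an ER membrane protein that organises the degradation complex, had 947 and 1031 TPM (saline), 248 and 221 TPM (AP) and 252 and 212 TPM (polyI:C + AP). Its fall in AP was 4.21-fold (log2 -2.07, SE 0.12, limma adjusted p 8.36e-05), and the caerulein-treated groups overlapped. Edem1 (ENSMUSG00000030104, chromosome 6, 108828641 to 108859356), which recognises misfolded glycoproteins, had 592 and 549 TPM (saline), 190.0 and 167 TPM (AP) and 245 and 239 TPM (polyI:C + AP). The log2 fold change in AP was -1.67 (SE 0.10, limma adjusted p 9.13e-05). Sel1l (ENSMUSG00000020964, chromosome 12, 91806043 to 91849157), the adaptor of the HRD1 ubiquitin ligase, had 1247 and 1153 TPM (saline), 444 and 341 TPM (AP) and 611 and 545 TPM (polyI:C + AP). For Sel1l the log2 fold change was -1.62 (SE 0.15, limma adjusted p 0.000355). In both Edem1 and Sel1l the AP mice were the lowest and the pretreated mice lay between the AP and saline mice.

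Selenos (ENSMUSG00000075701, chromosome 7, 66079649 to 66089405), a selenoprotein of the same complex, had 126 and 168 TPM (saline), 66.4 and 69.1 TPM (AP) and 66.8 and 60.3 TPM (polyI:C + AP). In AP this was a log2 fold change of -1.10 (SE 0.16, limma adjusted p 0.00222), which was -0.90 and under 2-fold without saline replicate 2. Vcp (ENSMUSG00000028452, chromosome 4, 42979963 to 43000507), the ATPase that pulls substrates into the cytosol and also serves outside the ER, had 175 and 163 TPM (saline), 314 and 338 TPM (AP) and 437 and 408 TPM (polyI:C + AP). Its log2 fold change in AP was 0.95 (SE 0.09, limma adjusted p 0.000474), the highest of the degradation genes and just under 2-fold. In the annotation 7.26% of Vcp's exon bases overlap a gene on the opposite strand. Syvn1, which encodes the ligase HRD1, had a log2 fold change of -0.57 (95% interval -1.11 to -0.03) and did not pass the test, but did after scaling (-0.99, limma adjusted p 0.0161).

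The 10 genes with an ER stress element in the promoter window did not share a direction on the deposited scale. In AP 3 of them fell, which were Derl3, Ero1lb and Dnajc3, and none rose, against 4.03% and 18.2% of all tested genes. Of the 10, 4 had log2 fold changes above 0 and 6 below on the deposited scale, from -3.47 for Derl3 to 0.81 for Calr, with a median of -0.37. Scaling turned Canx and Pdia6, which are among the 4, to below 0. The others of the 4, Hspa5 and Calr, were then at 0.03 (limma adjusted p 0.907) and 0.38 (0.0275). Creld2, at -1.05, also fell after scaling.

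Between pretreated and AP mice Derl3 fell and Sdf2l1 was lower by less than 2-fold, and the other 38 genes did not pass the test. Against AP mice none of the 40 genes rose and 1 fell (2.5%), against 0.44% and 0.404% of all tested genes. The median log2 fold change was -0.06. The 2 pretreated mice were both above the AP mice for 9 genes, both below for 17, and overlapped for 14, where 27.7% of all genes lay above and 22.1% below. After scaling the counts were also 0 and 1 (0.406% and 0.43% of all genes). At an adjusted p of at most 0.05 and any size of change 2 genes were lower and none higher (0.517% and 0.714% of all genes).

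The gene that fell was Derl3, which went from 34.7 and 26.3 TPM in AP to 8.28 and 5.45 TPM after pretreatment, the latter resting on an estimated 43 and 36 reads. The log2 fold change was -2.09 (SE 0.21, 95% interval -2.59 to -1.58, limma adjusted p 0.0154). The fold was similar but the call was lost in most fits with fewer mice. Without AP replicate 1 the log2 fold change was -1.89 (limma adjusted p 0.325) and without AP replicate 2 it was -2.28 (0.24). Without polyI:C + AP replicate 1 it was -2.37 (limma adjusted p 0.0665) and without replicate 2 it was -1.81 (0.21). The call was also lost without saline replicate 2 (limma adjusted p 0.0572) and with other variance priors (0.0726 and 0.121). Acinar markers summed to less in the pretreated than in the AP mice, as given above. By single gene, however, 3 of the 12 rose (25%, against 0.44% of all tested genes) and none fell. Of 10 macrophage markers 5 fell (50%, against 0.404% of all genes). The part of these cells in the Derl3 value was not tested.

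Sdf2l1 was lower in the pretreated mice by less than 2-fold, with 345 and 364 TPM in AP and 239 and 201 TPM after pretreatment (log2 fold change -0.69, SE 0.11, limma adjusted p 0.0466). It was the only other gene of the set with an adjusted p under 0.05. The genes that had risen in AP did not pass the test in this comparison. Their log2 fold changes were -0.40 for Trib3 (95% interval -0.88 to 0.08), -0.61 for Ddit3 (-1.03 to -0.20) and -0.76 for Ppp1r15a (-1.17 to -0.35). Ero1l was at -0.32 (-0.60 to -0.03), and for Xbp1 the interval ran from -0.29 to 0.16 around -0.07.

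Several stress and chaperone genes were lower in both pretreated mice without passing the test. Chac1 differed by -0.85 (limma adjusted p 0.0551, and 0.0469 after scaling), Calr by -0.55 (0.0537), Atf4 by -0.55 (0.0758) and Hspa5 by -0.63 (0.0863) on the log2 scale. The degradation genes Sel1l and Edem1 had values of 0.57 (0.145) and 0.44 (0.105), with both pretreated mice above both AP mice. The sensors had log2 fold changes between -0.14 and 0.12, with the widest interval, -0.29 to 0.50, for Atf6b. With 2 mice a group, an exact permutation test of a single gene cannot give a p below 0.333, so no such test was used.

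Against saline, the pretreated AP mice gave counts close to those of the AP mice, and both comparisons share the saline mice. Of the 40 genes, 3 rose and 9 fell, against 16.9% and 2.97% of all tested genes. Both pretreated mice were above both saline mice for 14 genes and below for 22, against 54.4% and 14% of all genes. At an adjusted p of at most 0.05 and any size, 11 were higher and 20 lower (33.4% and 5.8% of all genes). The median log2 fold change was -0.31, and after scaling 1 rose and 16 fell (7.9% and 5.87% of all genes) with a median of -0.77. The rises were Trib3 (2.61), Ddit3 (1.33) and Vcp (1.32) on the log2 scale, with limma adjusted p-values of 0.000236, 0.00152 and 0.000169. After scaling Ddit3 and Vcp were at 0.88 and 0.86, under 2-fold.

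Derl3 was 47.1-fold lower in pretreated AP than in saline mice (log2 -5.56, SE 0.21, limma adjusted p 2.57e-05). The other falls were Pdia2 (-2.96), Ero1lb (-2.70), Herpud1 (-2.09), P4hb (-1.59), Sdf2l1 (-1.56), Edem1 (-1.24), Selenos (-1.19) and Sel1l (-1.05). Sdf2l1, with 645 and 647 TPM (saline), 345 and 364 TPM (AP) and 239 and 201 TPM (polyI:C + AP), had been under 2-fold lower in AP alone and passed 2-fold here (limma adjusted p 0.000174). Sel1l came under 2-fold without saline replicate 1 (-0.998) or without polyI:C + AP replicate 2 (-0.97), and Selenos without saline replicate 2 (-0.99).

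Other genes of the same pathways also moved both ways in AP. By list, the share that rose ran from 4.55% to 28%, on both sides of the 18.2% of all tested genes. The share that fell ran from 13.6% to 20%, against 4.03%. Of the 25 further integrated stress response genes tested, 7 rose and 4 fell (28% and 16%, against the 18.2% and 4.03% of all genes given above), and after scaling 6 rose and 6 fell. Atf3, a stress-induced transcription factor, had 2.05 and 6.31 TPM (saline), 118 and 106 TPM (AP) and 68.0 and 50.6 TPM (polyI:C + AP) (log2 fold change in AP 4.75, limma adjusted p 0.000344). The saline values were the lowest and the AP values the highest. Cth, which encodes an enzyme of cysteine synthesis, fell by 1.51 on the log2 scale (limma adjusted p 0.000246). Of the 20 further chaperone and glycoprotein folding genes, 5 rose and 4 fell (25% and 20%), and after scaling 3 and 5. Serpinh1, the collagen chaperone, rose (log2 2.19, limma adjusted p 0.000251), and Fkbp11, a prolyl isomerase of secretory cells, went from 1176 and 1175 TPM in saline to 152 and 228 TPM in AP (log2 -2.65, limma adjusted p 0.000183). Of the 10 fibroblast and stellate cell markers 5 rose as well, and their part in the Serpinh1 value was not tested.

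Of the 12 further disulfide genes tested, 2 rose and 2 fell (16.7% each, against 18.2% and 4.03% of all genes). After scaling none rose and 2 fell (9.33% and 7.32% of all genes). The rises were Txndc12 (log2 1.17, and 0.75 after scaling) and Tmx2 (1.01, and 0.59), and Prdx4, an ER peroxiredoxin, fell from 728 and 792 TPM to 219 and 217 TPM (log2 -1.80, limma adjusted p 5.04e-05). Among 22 further degradation genes 1 rose (4.55%) and 3 fell (13.6%). The rise was Nploc4, a cofactor of VCP (1.09, and 0.67 after scaling). The largest fall was Edem2, a relative of Edem1 (-1.56, limma adjusted p 6.5e-05). Of 7 genes of ER-phagy, the removal of ER by autophagy, 1 rose, the receptor gene Tex264 (1.05, and 0.62 after scaling), and 1 fell, the receptor gene Retreg1 (-1.78, limma adjusted p 0.000897). The rise of Tex264 was under 2-fold without saline replicate 1 (0.84) and missed the adjusted threshold without AP replicate 2 (limma adjusted p 0.0524), and that of Nploc4 was under 2-fold without saline replicate 2 (0.96).

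Of the 13 further sensor, processing and transcription factor genes tested, 1 rose and 2 fell in AP, also after scaling. Before scaling these were 7.69% and 15.4%, against 18.2% and 4.03% of all genes. Creb3, which encodes an ER-anchored factor related to ATF6, rose (log2 1.45, limma adjusted p 0.00127). Bhlha15, which encodes MIST1, a factor of secretory cell architecture, had 391 and 326 TPM (saline), 53.6 and 46.4 TPM (AP) and 161 and 171 TPM (polyI:C + AP). It fell in AP (log2 -2.83, SE 0.12, limma adjusted p 3.94e-05), and was the only gene of these further lists to change 2-fold and pass the test between pretreated and AP mice, where it rose (log2 1.73, SE 0.12, limma adjusted p 0.00397). Edem2 also passed the test there, higher by less than 2-fold (0.55, limma adjusted p 0.0404). For Bhlha15 the groups did not overlap, and the pretreated mice lay between the others. The second call was lost with a constant variance prior (limma adjusted p 0.0781) and without AP replicate 1 (0.267), AP replicate 2 (0.211), polyI:C + AP replicate 1 (0.087) or replicate 2 (0.21), at log2 fold changes from 1.63 to 1.83.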

How the data were processed

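RNA came from the whole pancreas of 6 mice, 2 in each group (saline, AP, polyI:C + AP). Per the labels and the study's methods, the authors used Trimmomatic for trimming, STAR for mapping to mm10 and HTSeq for counts per gene, and DESeq2 for their own comparisons, with no versions given. The authors deposited TPM values per gene for each mouse, and the step from counts to TPM is not described. The labels name both a ribosomal RNA depletion kit and a stranded mRNA kit. The labels give the same sequencing lane for all 6 libraries.

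TPM values were used as deposited, as log2(TPM + 0.5), over 16814 genes averaging 1 TPM or more across the mice. limma 3.58.1 (R 4.3.3) fitted all 6 mice with a coefficient per group, a variance prior following mean TPM times exon length, and Benjamini-Hochberg adjustment over all tested genes. Genes were called at an adjusted p of at most 0.05 and at least 2-fold. The fit was checked on data simulated from the saline means. Those data held no shift of the median gene between groups, so the check does not cover the question of scale. Nothing states that mice were housed or handled separately, so p-values refer to the spread between these samples only. For each gene limma combined that spread with the variance prior drawn from all tested genes.

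Ensembl identifiers were matched to GENCODE M21 (22490 of 22556), which gave symbols and GRCm38 coordinates. Read depth is not given with TPM. Approximate depths of 3313409 to 10894939 reads, lowest in the saline mice, were estimated from the spacing of low TPM values against exon length, where 51.1% to 62.1% of low values fell within 0.1 of a whole read. No counting interval was computed from them.

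Genes named with values are the 40 genes, as far as they were called or are sensors or transcription factors, further members as examples of their role, the called gene with the largest rise and fall of each further pathway list with a mean of at least 10 TPM, and any called between the caerulein-treated groups. The members, the pathway lists and the marker lists were chosen with earlier results of these data known. The main fit did not pair mice by replicate number. Deviations from group means of same-numbered mice correlated at 0.0075, 0.035 and -0.0039 across genes. Such values cannot show whether same-numbered mice were handled together. Alternatives were other pseudocounts, filters, scalings, variance priors and thresholds, the replicate block, and leaving out each mouse.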

Additional observations from a re-analysis of the deposited data

How the results depend on the processing

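Limits are 2 mice a group, read depth lowest in the saline mice, and the scale of the TPM values. Of 51 calls of named genes, 15 were lost on leaving out some mouse and 10 under median-of-ratios scaling. Median-of-ratios scaling gave 3 genes higher, 15 lower and a median of -0.62 in AP against saline, and 1, 16 and -0.77 in polyI:C + AP against saline. Of all tested genes, 9.33% were then higher and 7.32% lower in AP, and 7.9% and 5.87% in polyI:C + AP. The scaling turned Ern1 to -0.18 against saline in both and to -0.00047 between the caerulein-treated groups, and Atf4 to -0.36 in polyI:C + AP against saline. Without genes above 1% of a library the medians were -0.40 and -0.56 against saline, with 15 lower in the pretreated mice, Atf4 at -0.15, and Ern1 at -0.0112 between the caerulein-treated groups. Adjusted p alone gave 15 higher and 17 lower in AP (33% and 7.39% of all genes), 11 and 20 in polyI:C + AP (33.4% and 5.8%), and 2 lower between the treated groups (0.517%). Unadjusted p with 2-fold also gave 2 lower there, Derl3 and Pdia2. Both other variance priors left 0 genes lower there. Leaving out 1 mouse gave 0 to 1 there, and 3 to 5 higher in polyI:C + AP against saline, the 5 without pretreated replicate 2. Leaving out 1 mouse also turned the sign of small differences. Between the treated groups the log2 fold change ranged from -0.074 to 0.12 for Ern1, -0.047 to 0.26 for Atf6b, -0.14 to 0.10 for Herpud1, -0.32 to 0.26 for Fkbp11, -0.11 to 0.24 for Nploc4 and -0.13 to 0.00089 for Xbp1, and in polyI:C + AP against saline from -0.037 to 0.23 for Atf4. The replicate block changed no count of members, with 5 higher and 9 lower in AP, 0 and 1 between the treated groups, and 3 and 9 in polyI:C + AP against saline. The cause of these changes was not tested.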
